A study of Homo sapiens with 5 samples.

Results

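The members described here are 23 promoter windows of zinc finger genes, out of 1303 gene windows listed for C4-2 prostate cancer cells. A window was a member when its gene name started with ZNF followed by a digit, and the other 1280 windows served as the comparison. Each window is 4000 bp long and is centred on the gene's listed position. Of the members, 21 belong to protein-coding ZNF genes and 2 to antisense RNA genes, ZNF667-AS1 and ZNF197-AS1. RefSeq names 517 protein-coding genes of this form, so the list holds 21 of them.

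BG4 ChIP-seq, which maps G-quadruplex (G4) structures, was run on 4 replicates of one group, cultured C4-2 cells with no named treatment. C4-2 is an established androgen-independent prostate cancer line derived from LNCaP cells, although the source field of the labels reads prostate cancer tissue. An input library was not analysed here. All replicates come from a single line, so the spread below is between samples of one line and says nothing about other prostate cancers. The 4 deposited peak lists hold 4427 to 8036 peaks and carry no read counts, which leaves library depth unknown. Positions are on GRCh37, because the last peak on chromosome 1 ends at 249201060, past the 248956422 bp of that chromosome in hg38. Every window of the list held a peak of at least 1 replicate, and that the members hold peaks is therefore not a result.

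Zinc finger proteins of this family bind DNA through tandem fingers, each folded around a zinc ion. Many also carry a KRAB domain, which recruits the corepressor TRIM28 and with it histone methylation, and many of these silence transposable elements. Their genes arose by repeated duplication and lie in clusters, above all on chromosome 19. G4 structures form where guanine runs stack into tetrads, and BG4 is an antibody that binds the folded form.

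The promoter sequences show which guanine runs the members carry. RefSeq gives the sequence from 250 bases before to 50 after the gene start, on GRCh38.p14, for 21 of the 23 members. The canonical G4 motif, 4 runs of at least 3 G with loops of up to 7 bases on either strand, was found in 1 of these 21 genes (4.76%), namely ZNF699. All genes with a RefSeq promoter held it in 27.9%, and all ZNF genes with one in 20.8%. With loops of up to 12 bases it was found in 9 of the 21 members (42.9%), beside 41.2% of ZNF genes and 40.6% of all genes. Among these members, ZNF568 and ZNF829 have overlapping promoters, and their motif is one site. A match is a description of letters and not a measured structure, and the promoter frame is far shorter than the 4000 bp window. The motif of ZNF699 lies on the opposite strand at positions -69 to -48, and those of ZNF287 and of ZNF783 nearest its start, both with longer loops, lie on the gene strand. These are shown because the windows of these genes held peaks in 3 replicates. The other members with the longer-loop form were ZNF358 and ZNF365 (peaks in 2 replicates) and ZNF43, ZNF507, ZNF568 and ZNF829 (in 1). Capitals mark the guanine runs.
ZNF699: GGGGcGGGGcctGGGaagcGGG
ZNF287: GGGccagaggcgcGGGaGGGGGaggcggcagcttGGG
ZNF783: GGGaGGGcgcGGGGcggcggccgcGGG

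The windows of ZNF470 and ZNF736 held peaks in all 4 replicates, and their promoters contain neither form of the motif. Both promoters are printed whole to show the scattered runs, with each run of at least 3 G or C in capitals. ZNF470 lies at chr19:56567218-56567517 and ZNF736 at chr7:64313711-64314010 on GRCh38.p14, both on the plus strand. The third window with peaks in all replicates, ZNF471, was not matched to a promoter sequence.
ZNF470: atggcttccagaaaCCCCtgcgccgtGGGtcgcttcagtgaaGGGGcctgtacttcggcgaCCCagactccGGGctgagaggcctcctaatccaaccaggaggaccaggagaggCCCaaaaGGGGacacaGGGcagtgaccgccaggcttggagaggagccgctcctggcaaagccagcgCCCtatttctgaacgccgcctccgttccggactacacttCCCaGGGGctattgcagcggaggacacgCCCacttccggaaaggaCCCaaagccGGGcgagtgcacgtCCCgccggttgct
ZNF736: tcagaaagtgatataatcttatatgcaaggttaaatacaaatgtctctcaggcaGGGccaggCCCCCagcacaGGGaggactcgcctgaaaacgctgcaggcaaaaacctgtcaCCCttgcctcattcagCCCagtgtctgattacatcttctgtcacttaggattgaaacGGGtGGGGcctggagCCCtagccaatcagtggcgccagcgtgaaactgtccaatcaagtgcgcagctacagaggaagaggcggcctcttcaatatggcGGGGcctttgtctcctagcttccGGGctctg

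Some members share longer stretches of promoter sequence, and these are printed because the family arose by duplication. ZNF267 and ZNF43 share a run of 19 bases that occurs in the promoters of 6 genes, 5 of them ZNF genes. ZNF43 and ZNF736 share another run of 18 bases, found in 16 genes of which 15 are ZNF genes. Capitals mark the shared runs. These members held different numbers of peaks, in 1 replicate for ZNF267 and ZNF43 and in 4 for ZNF736.
ZNF267: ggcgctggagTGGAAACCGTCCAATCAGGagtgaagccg
ZNF43: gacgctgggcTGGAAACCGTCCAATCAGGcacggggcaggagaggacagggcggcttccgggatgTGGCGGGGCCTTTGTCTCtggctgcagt
ZNF736: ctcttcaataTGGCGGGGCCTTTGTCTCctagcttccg

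The shorter run ACTACATTTCCCA, in capitals below, occurs on either strand in ZNF568, ZNF667-AS1, ZNF717 and ZNF829, and in the promoters of 114 genes in all, 32 of them ZNF genes. The ZNF568 and ZNF829 promoters overlap, so their match is one site. Windows of these genes held peaks in 1 replicate (ZNF568 and ZNF829) or 2 (ZNF667-AS1 and ZNF717).
ZNF667-AS1: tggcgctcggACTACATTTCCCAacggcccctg
ZNF829: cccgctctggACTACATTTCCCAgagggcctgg

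Common promoter motifs were also searched on both strands. The letters CTTCCGG, part of the binding motif of ETS factors, occur in 10 of the 21 members (47.6%), in 41.6% of ZNF genes and in 12.2% of all genes. The GGGCGG box occurs in 12 members (57.1%), beside 67.5% of ZNF genes and 48.3% of all genes. The letters CCAAT occur in 10 members (47.6%), beside 52.2% and 39.7%. The median GC content of the members' promoters was 63.7%, against 58.7% over all promoters.

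Across the 4 replicates, 12 of the 23 ZNF windows (52.2%, exact 95% binomial interval 30.6 to 73.2) held a peak of at least 2 replicates, against a background of 49.0% of all 1303 windows. At least 3 replicates had a peak in 6 ZNF windows (26.1%, interval 10.2 to 48.4), where the background was 26.6%. All 4 replicates had a peak in 3 windows (13.0%, interval 2.78 to 33.6), where the background was 12.8%. A peak of a single replicate was found in 11 windows (47.8%), and in 654 of the other 1280 (51.1%). The intervals cover counting error only and treat windows as independent. At each level the share of ZNF windows lay near the background.

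**Figure D1:**
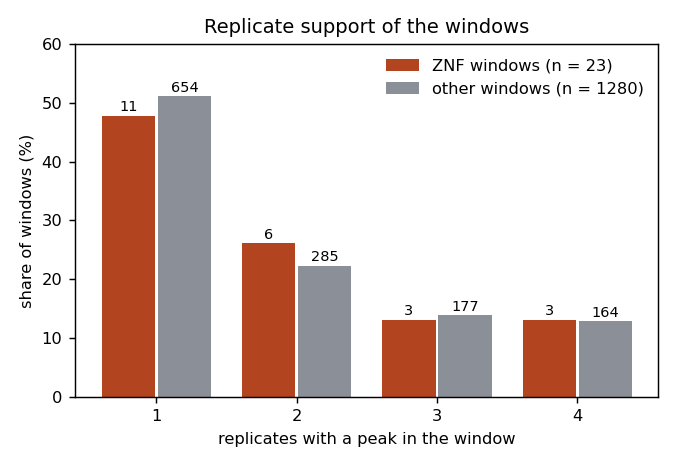
Share of windows (percent) by the number of replicates with a peak, for the 23 ZNF windows and the 1280 other windows, with the number of windows above each bar. The shares lie close together at each level, 13.0% of ZNF windows and 12.8% of other windows having a peak in all 4 replicates.

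Replicates 1 to 4 had a peak in 17, 9, 10 and 8 ZNF windows, which is 73.9%, 39.1%, 43.5% and 34.8% of the members. The same shares of the other windows were 62.2%, 44.7%, 52.9% and 28.6%. The difference averaged 0.736 ± 9.88 percentage points (SD, n = 4), with the ZNF share higher in 2 of 4 replicates, so it was smaller than the spread between replicates. Replicate 1, which has the most peaks in all, gave the peak of 6 of the 11 single-replicate ZNF windows and of 261 of the 654 other ones (39.9%).

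The 3 windows with a peak in every replicate were ZNF470, ZNF471 and ZNF736, each a KRAB zinc finger gene. Values are the authors' MACS2 fold enrichment over the local background at the summit, with the tallest peak taken where a replicate had several in a window. In replicates 1 to 4 the ZNF470 window had a fold enrichment of 6.99, 7.61, 7.49 and 5.12 (6.80 ± 1.15, SD, n = 4). Replicate 4 was the lowest and the other replicates lay close together.

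The ZNF471 window, which lies near that of ZNF470 on chromosome 19, gave 7.04, 6.48, 13.6 and 5.92 (8.26 ± 3.59). Replicate 3 stood alone, and without it the mean was 6.48 ± 0.558 (n = 3). ZNF471 is a gene reported to be silenced by promoter methylation in several tumours. The ZNF736 window on chromosome 7 gave 6.75, 9.21, 8.70 and 7.38 (8.01 ± 1.14). By mean fold enrichment these windows ranked 73 (ZNF471), 84 (ZNF736) and 149 (ZNF470) of 1303. Their ranges over replicates overlapped, so their order was not settled by these replicates.

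**Figure D2:**
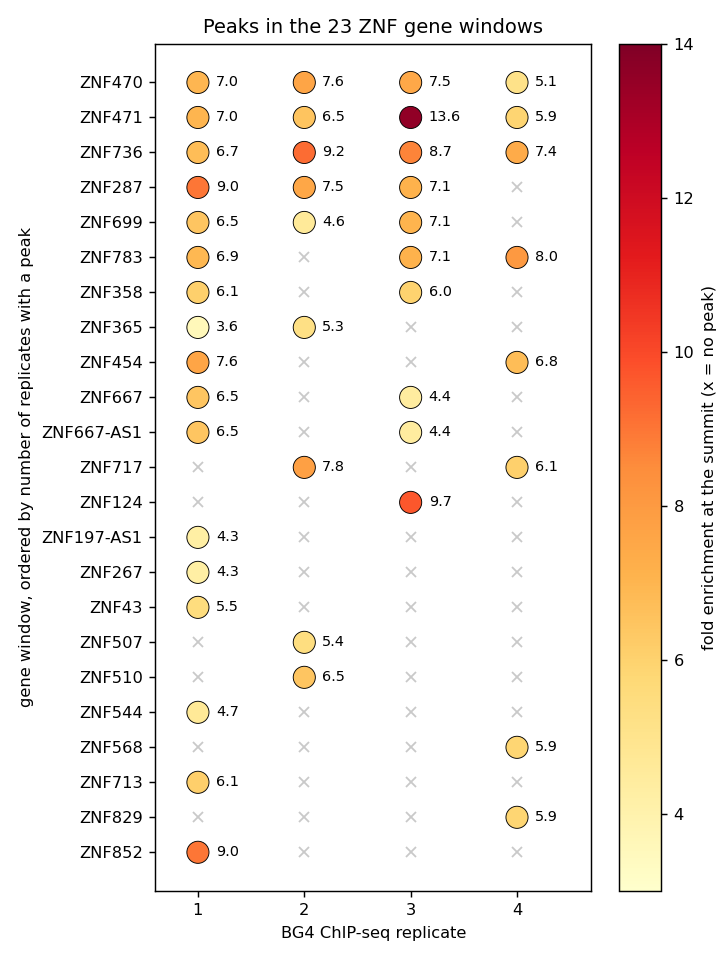
MACS2 fold enrichment of the highest peak in each of the 23 ZNF windows (vertical axis) and each replicate (horizontal axis), given as colour and as a number, with a cross where a replicate had no peak. Windows with peaks in all replicates lie between 5.12 and 13.6, and the highest single value is replicate 3 of ZNF471.

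Peaks of 3 replicates were found at ZNF287, ZNF699 and ZNF783. The window of ZNF287, a zinc finger gene with SCAN and KRAB domains, had 8.99, 7.53 and 7.15 in replicates 1 to 3 (7.89 ± 0.969, n = 3) and no peak in replicate 4. The ZNF699 window had 6.45, 4.63 and 7.07 in the same replicates (6.05 ± 1.27), with replicate 2 lowest. The ZNF783 window had 6.91, 7.15 and 8.05 in replicates 1, 3 and 4 (7.37 ± 0.598) and no peak in replicate 2. The ranges of these windows overlapped.

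Peaks of 2 replicates were found at 6 windows, which share 5 peak regions. ZNF358 had a fold enrichment of 6.08 in replicate 1 and 5.99 in replicate 3. ZNF365, whose product takes part in genome stability, had the lowest value of any member, 3.59 in replicate 1, and 5.27 in replicate 2. ZNF454, a KRAB zinc finger gene, had 7.60 in replicate 1 and 6.78 in replicate 4.

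A single region covered the neighbouring windows of ZNF667 and ZNF667-AS1, an antisense transcript whose loss by promoter methylation is common in cancers, and had 6.47 in replicate 1 and 4.45 in replicate 3. ZNF717 was the member with 2 replicates and no peak in replicate 1, at 7.79 in replicate 2 and 6.06 in replicate 4. The ZNF717 gene has near-identical copies elsewhere in the genome, and the treatment of reads that match several places is not given in the sources used here, so its peaks are uncertain. Of the 12 windows with 2 replicates or more, 11 had a peak in replicate 1. That replicate has the most peaks and also covered the most other windows, 796 of 1280 (62.2%) at any level of support. The count is therefore not read as a trait of ZNF windows.

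In the 11 single-replicate windows the values ran from 4.26 to 9.66. The highest was ZNF124 in replicate 3 (9.66), and the next was ZNF852 in replicate 1 (8.99). The lowest was 4.26 in replicate 1, at both ZNF267 and ZNF197-AS1, which lie on different chromosomes. Replicate 1 also gave the only peaks of ZNF43, ZNF544 and ZNF713, of which the last holds a CGG repeat known for expansions at a fragile site. Replicate 2 gave those of ZNF507 and ZNF510, and replicate 4 the single peak shared by ZNF568 and ZNF829. The mouse counterpart of ZNF568 is a known repressor needed in embryonic development. Replicates 1 to 4 thus gave 6, 2, 1 and 2 of these windows, and 261, 142, 185 and 66 of the other single-replicate windows.

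The heights of ZNF peaks differed little from those of the other windows over the whole list. The median fold enrichment in replicates 1 to 4 was 6.47, 6.48, 7.15 and 5.99 in ZNF windows and 6.55, 6.21, 6.65 and 6.04 in the others. ZNF windows were higher in 2 of 4 replicates, by 0.162 ± 0.275 on average (SD, n = 4). With 0 for a replicate without a peak, the difference in mean fold enrichment was -0.162 ± 0.439. Both differences were smaller than the spread between replicates. The windows that share no peak region with another window, 15 ZNF and 714 others, were a set chosen after seeing the data. There the ratio of mean fold enrichment (0 without a peak) between ZNF and other windows was 1.12 ± 0.0685 (SD, n = 4). It lay above 1 by more than that spread. The replicates see the same windows, so the SD of these ratios does not measure the spread between windows. The ratio was 0.968 ± 0.153 over all windows. When the −log10 p-value took the place of fold enrichment, it was 0.853 ± 0.114 over all windows, below 1 by more than its spread. The direction thus depended on the set and the measure.

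Both sets were weaker than their lists as a whole, whose median fold enrichment was 7.53, 7.32, 7.41 and 6.79. Of the 41 ZNF peaks, 13 (31.7%) exceeded the median of their own list, beside 551 of 1841 peaks in the other windows (29.9%). The peaks were also of like width, with a median of 370 bp in ZNF windows and 357 bp in the others. In both sets, the windows with 3 or 4 replicates held higher values than those with 1 or 2. The median fold enrichment in ZNF windows was 5.85, 5.75, 7.37 and 8.01 with 1, 2, 3 and 4 replicates, and 5.63, 6.20, 6.94 and 7.97 in the others.

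The summits of ZNF peaks lay close to the window centres. All 44 pairs of a ZNF window and a summit fell within 1 kb of the centre, while 77.5% ± 0.342 (SD, n = 4) of those in other windows did. Within 250 bp were 36 of the 44 (81.8%). In replicates 1 to 4 these were 11 of 17, 9 of 9, 8 of 10 and 8 of 8 summits, a mean of 86.2% ± 17.1, whereas the other windows had 44.6% ± 0.356. The difference was 41.6 ± 17.1 percentage points and was above 0 in 4 of 4 replicates. It was smallest in replicate 1 at 20.1 points and was larger than the spread between replicates. The replicates see the same 23 windows and are not independent draws of windows. The 2 sets also differ in kind of gene. Of the members 21 are protein-coding, whereas among the other 1280 windows 717 names matched a protein-coding RefSeq gene. Distances were not compared among protein-coding genes alone, so the difference cannot be called particular to ZNF genes. The median distance was 73.5 bp in ZNF windows and 319.5 bp in the others.

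**Figure D3:**
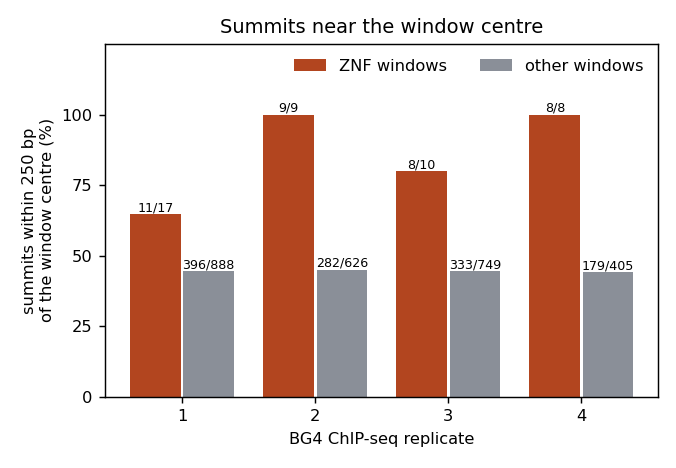
Share of summits (percent) within 250 bp of the window centre in each of the 4 replicates, for ZNF windows and other windows, with the counts above the bars. The ZNF share is above the other share in each replicate, 64.7% against 44.6% where the gap is smallest.

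Some windows hold more than one gene start, and 566 of the other windows (44.2%) share a peak region with another window, beside 8 ZNF windows (34.8%). Among windows that share no region, 87.3% of ZNF summits and 54.5% of the others lay within 250 bp, as a mean over replicates. The gap was smaller there and stayed in the same direction.

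The 8 summits beyond 250 bp belonged to 6 windows. Both ZNF358 summits lay downstream, at 764 bp in replicate 1 and 752 bp in replicate 3. Both ZNF667 summits lay at 665 and 796 bp, inside the region that was centred on ZNF667-AS1, where the same summits were 150 and 19 bp away. The others were ZNF365 at 271 bp, ZNF713 at 293 bp, ZNF783 at 369 bp in replicate 1 and ZNF197-AS1 at 280 bp upstream. In the 17 other windows every summit lay within 250 bp.

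Summits of different replicates fell near each other in the same window. The median distance between the outermost summits was 99 bp over the 12 ZNF windows with at least 2 replicates, and 101 bp over the 626 other windows. The ZNF470 summits lay 36 to 133 bp downstream of the centre, those of ZNF471 33 to 134 bp upstream, and those of ZNF736 23 to 73 bp upstream. ZNF783 had the widest spread, 480 bp, with replicate 1 downstream and the other replicates upstream. A peak covered the centre itself in 17 ZNF windows (73.9%) and in 615 others (48.0%).

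**Figure D4:**
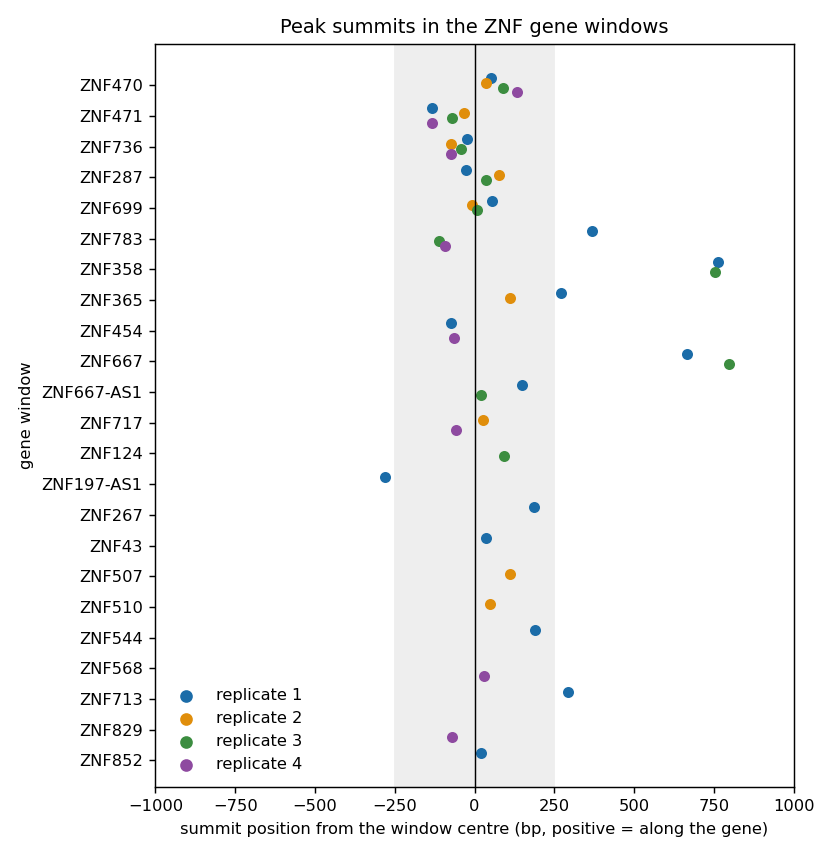
Signed distance (bp) of each peak summit from the window centre, positive in the direction of transcription, by ZNF window (rows) and replicate (colours), with the 250 bp on each side of the centre shaded. Summits lie between -280 and 796 bp, and most of them sit close to the centre.

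By chromosome the members were far from evenly spread, as is known of this family. Chromosome 19 held 11 of the 23 (47.8%), against 36 of the other 1280 windows (2.81%). The ZNF windows made up 23.4% of the 47 windows on that chromosome. Chromosomes 3 and 7 held 3 each, and chromosomes 1, 5, 9, 10, 16 and 17 held 1 each. On chromosome 19, 6 of the 11 ZNF windows (54.5%) had a peak in at least 2 replicates, and 17 of the 36 other windows there (47.2%) did, beside the background of 49.0%.

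**Figure D5:**
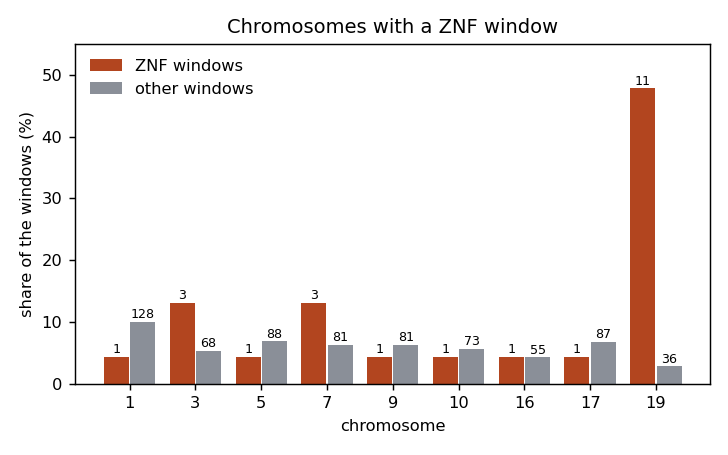
Share (percent) of the 23 ZNF windows and of the 1280 other windows on each chromosome with a ZNF window, with the number of windows above each bar. Chromosome 19 holds 11 ZNF windows (47.8%) and 36 others (2.81%).

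Members whose centres lay within 250 kb of the next formed 3 clusters with 8 windows. The cluster with the most members lies on chromosome 19, where ZNF667-AS1, ZNF667, ZNF471 and ZNF470 follow each other with centres from 56988619 to 57078880, a span of 90.3 kb. It held 4 peak regions. The ZNF667 region (chr19:56988467-56988951) had peaks of 2 replicates, and the ZNF471 (chr19:57018875-57019328) and ZNF470 (chr19:57078569-57079205) regions had peaks of all 4. Between them lies a region (chr19:57049691-57050543) shared by the windows of AC005498.3 and ZFP28, a further KRAB zinc finger gene outside the naming rule, also with peaks of all 4 replicates. Its fold enrichment was 7.85, 10.6, 6.43 and 5.09. Of these 4 neighbouring regions, 3 held a peak of every replicate. Counted by window and not by region, the share was 12.8% over the whole list. It was 10.6% of the other windows when those sharing a region were counted once. The cluster was singled out after its values were seen.

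The other clusters were less strongly supported. ZNF829 and ZNF568 on chromosome 19 start 38 bp apart in opposite directions and share the peak of replicate 4 at chr19:37407045-37407437. ZNF852 and ZNF197-AS1 on chromosome 3 lie 114 kb apart, each with its own peak of replicate 1. The members' nearest peak elsewhere lay at a median of 59.8 kb, and that of other windows at 70.4 kb. A peak elsewhere was found within 30 kb of 5 ZNF windows (21.7%) and of 368 others (28.8%). These comparisons mix chromosomes, and the members lie largely on chromosome 19. On that chromosome the medians were 30.3 kb for ZNF windows and 28.3 kb for others. Within 30 kb there, 4 of 11 ZNF windows (36.4%) and 21 of 36 others (58.3%) had such a peak.

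Regions shared with other genes were found at 8 ZNF windows. Besides the pairs among members, ZNF470 shared its region with AC007228.11, ZNF454 with RP11-281O15.8, ZNF544 with CTD-3138B18.4 and ZNF713 with MRPS17, which encodes a mitochondrial ribosomal protein. At these windows a peak cannot be given to one gene.

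A further set of 15 windows belongs to zinc finger genes of the C2H2 class whose names do not start with ZNF. They were picked by a fixed set of name prefixes, such as KLF, PRDM, ZBTB, ZFP and ZIC. Zinc finger genes with other prefixes are not counted. Peaks of all 4 replicates were found in 5 of the 15, beside the background of 12.8%, and of at least 2 replicates in 8, beside 49.0%. Among these 5 were the Krüppel-like factors KLF2 (8.39, 7.47, 9.31 and 6.04) and KLF4 (5.21, 7.50, 9.60 and 6.35), and GFI1B, a blood cell repressor, with 8.39, 6.02, 8.01 and 5.86. ZBTB16, a repressor also known as PLZF, had the highest mean of the set, with 13.2, 9.40, 10.3 and 11.6. The fifth was ZFP28. The difference between this set and the ZNF windows was not tested.

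The partners through which KRAB zinc finger proteins act were looked up in the same list. Of 21 genes for TRIM28, SETDB1, the heterochromatin proteins and related corepressors, 0 had a window. Few genes have a window at all, for instance 21 of the 517 protein-coding ZNF genes, so the 0 is not read as a marked absence. The list leaves out places that also carried G4 signal in HepG2 and K562 cells, so the lookup says nothing about peaks at these genes outside the list.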

How the data were processed

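BG4 ChIP-seq was performed by the authors in 4 replicates of C4-2 cells. The submitters' processing notes name bcl2fastq 1.8.4, Bowtie2 2.2.5, SAMtools 1.11, MACS2 2.1.1 and hg19, whereas the methods name hg38. The deposited lists were called per replicate and read as GRCh37. Treatment of duplicate and multiply matching reads, and use of the input as control, are not given in the sources used here, and each can change which peaks were called. The deposited fold enrichment is a ratio, computed by the authors with MACS2 as signal at the summit against local background. Deposited −log10 p-values and q-values, also from the authors' MACS2 runs, served to filter and rank peaks, as an alternative measure of height and to count tied values. The deposited score, which the authors' peak caller derives from the q-value, was not used.

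A peak belonged to a window of the study's gene list when they overlapped by at least 1 bp. The highest peak of a replicate gave the window's value. Distances were taken from the window centre along the gene's strand. Peaks of different replicates that overlapped were merged into regions. All members are named, in full where 3 or 4 replicates had a peak, by their values with 2 replicates, and by counts and extremes with 1. Other genes are named where they share a region or cluster with a member or belong to the other zinc finger set. The members and lists were chosen with earlier results of these data known, so no p-value is given. The design has 1 condition, and differences between sets of windows are given per replicate, with their SD. Intervals are exact binomial at 95%. Nothing bounds the depth, as the lists hold no counts. The methods call the replicates biological, and the labels do not say whether they came from separate cultures.

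No GRCh37 genome was used, so promoter sequence came from RefSeq on GRCh38.p14, matched by symbol, and no sequence under a peak was read. Promoter motifs of the other listed genes were not compared, since under 80% of them matched. The planned count of finger motifs in proteins was not run. The alternatives changed the peak threshold, the number of peaks, the overlap and window rules, the members, the measure, the cluster distance, the loop length and the replicates. Leaving out mitochondrial windows, chromosome 19 alone, and windows that share no region were chosen after seeing the data. The counting steps recovered 1000 of 1000 simulated windows. Python 3.11.15, scipy 1.17.1 and matplotlib 3.10.9 were used.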

Additional observations from a re-analysis of the deposited data

Results flagged for a closer look

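Of 17 measures with a value in each of 4 replicates, 3 had a replicate whose gap to its nearest neighbour took up more of the range than Dixon's critical value at a level of 95%, which chance exceeds in about 1 of 20 measures. The fold enrichment of the ZNF471 window was 13.6 in replicate 3, with a gap of 0.855 of the range. The peak of the ZNF470 window was 566 bp wide in replicate 2, with a gap of 0.963. The share of ZNF summits downstream of the window centre was 25% in replicate 4 (2 of 8 summits), with a gap of 0.914, while replicates 1 to 3 gave 70.6%, 66.7% and 70.0%. No cause was tested.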

How the results depend on the processing

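The share of ZNF summits within 250 bp kept its direction against the other windows in every setting tried. So did the share within 1 kb, while the differences in replicate support and fold enrichment changed sign in some settings. Over all results, 89 values stayed near the reported one, 17 moved further and 13 changed sides, of 0 for differences or of 1 for ratios. A value that changed sides was counted as such even where it lay within the limit for near, as the ratio of 1.01 against 0.968 did. Near meant within 1.5 times for counts and within the SD between replicates for most other values. For the difference within 1 kb that limit was only 0.342 points. It came from the other windows alone, as the ZNF share was 100% in every replicate, so small shifts there counted as moved. For the difference in the share with at least 2 replicates it meant within 21.3 points. That wide limit came from the exact binomial interval and not from the replicates. With the 3000 strongest peaks per replicate, 3 ZNF windows had peaks of at least 2 replicates and 0 had all 4. The difference from other windows was then -0.941 percentage points in the share with at least 2 replicates (3.27 as reported) and -0.225 in the mean share with a peak. The ratio of mean fold enrichment between ZNF and other windows was 0.968 as reported. It was 1.01 with summits inside the window, 1.11 with 1000 bp on each side, 1.02 without antisense RNA windows, 1.05 with shared regions counted once and 1.12 ± 0.0685 over windows that share no region. The difference in summits within 1 kb, 22.5 points as reported, was 22.0 with a −log10 q of at least 4, 23.2 with the 3000 strongest peaks, 18.7 with summits inside the window, 6.95 with 1000 bp on each side, 14.4 with shared regions counted once, 21.4 without mitochondrial windows, 29.9 on chromosome 19 and 18.5 over windows that share no region. On chromosome 19, 6 windows had at least 2 replicates. With only windows of at least 2 replicates, 6 lay on chromosome 19 and 4 in clusters, and without antisense RNA windows 5 lay in clusters. Loops of up to 12 bases gave 9 promoters with a G4 motif in place of 1. The cause of these shifts was not tested.

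Leaving out each replicate in turn gave 7 to 10 ZNF windows with at least 2 replicates, fewest without replicate 1, and 3 to 5 with every replicate, most without replicate 4. The other windows moved in the same way. Without replicate 1, 413 of 1280 (32.3%) had at least 2 replicates, beside 7 of 23 ZNF windows (30.4%). Without replicate 4, 267 of 1280 (20.9%) had every replicate, beside 5 of 23. The difference in the share with at least 2 replicates ran from -1.83 without replicate 1 to 4.49, and was -0.584 without replicate 4. The difference in the mean share with a peak ran from -2.93 without replicate 1 to 4.12, and was -1.08 without replicate 4. The ratio of mean fold enrichment ran from 0.906 to 1.02, and was 1.02 without replicate 2 and 1.00 without replicate 3. No paired analysis was possible because the series has 1 group of numbered replicates. Depth is unknown, so a window without a peak in a replicate may only have been below what its library could show.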

Other observations

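All 41 ZNF peaks shared their pair of fold enrichment and q-value with at least 1 other peak of the same list. The 4 lists hold 1415, 1178, 1281 and 957 different pairs among 8036, 6192, 6805 and 4427 peaks, so equal values at distant genes, such as the 4.26 of ZNF267 and ZNF197-AS1 in replicate 1, are frequent in these files. The cause was not tested.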
